A study of Drosophila melanogaster with 2 samples.

Results

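The intergenic peaks described here are places bound in chromatin from whole Drosophila melanogaster embryos where no annotated gene lies under the summit. They were taken from the authors' thresholded list by the place of the summit, the position of highest signal. A peak was kept when its summit lay outside every gene body and more than 500 bp from every transcription start in Ensembl release 115. Genes of any biotype were used except transposable element entries, and 13 of the peaks kept lay within 500 bp of the start of such an entry. With these entries counted as genes, 453 peaks were kept. Of the thresholded peaks, 466 met this rule and the other 6559 did not, a share of 6.63% (95% Wilson interval 6.07 to 7.24%). The others were 4302 at promoters (within 500 bp of a start), 1986 in introns and 271 in exons. The gene annotation decided which peaks were kept, so their place outside genes is a definition and not a result.

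The embryos were aged 0 to 24 h and came, with both sexes pooled, from a transgenic fly line (strain CG34376-GFP) that stably makes CG34376 with GFP at its C terminus. CG34376 is an annotated gene on 3R (chr3R:22448099-22460749, build dm6). ChIP-seq, in which fragments bound by a protein are pulled down with an antibody and sequenced, gave 2 libraries, biological replicates 2 and 3, which form 1 group. The labels conflict, since 1 note describes both libraries as input controls while the assay title and the antibody field describe an immunoprecipitation of CG34376; the libraries were treated as immunoprecipitated samples, and no untagged or other condition stands beside them.

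Sequence between genes in the fly holds enhancers, which raise transcription of genes at a distance, and insulators, which separate neighbouring domains. Many enhancers of embryonic patterning genes lie far from the start they control, and the nearest gene is often not the one controlled. GATA factors are zinc-finger proteins that bind short sites with the core GATA, and in the fly embryo the GATA factor serpent is known for its roles in gut, blood and fat body.

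The sequences that the results turn on are those under the strongest summits outside genes and those with several GATA matches. Each is printed from 100 bp left to 100 bp right of the summit, 5′ to 3′ on the plus strand of the RefSeq Release 6 assembly (build dm6), and is named by the genes on its left and right. Capitals mark each match to AGATAA or AGATAG or TGATAA or TGATAG, or to CGATA, on either strand, so that TTATCA is TGATAA read on the other strand; adjoining matches run together. The first 3 are the strongest intergenic peaks, and the next 4 are the strongest of those with 3 or more GATA matches, apart from the peak between ana and CNT2 (signal 1040, 3 matches), whose sequence is not shown. Their positions are, in the same order, chr2L:9567408-9567608, chr3R:12403033-12403233, chr2L:1643413-1643613, chr2L:6789460-6789660, chr2L:7436852-7437052, chr3L:8704998-8705198 and chr3L:13019610-13019810.
jp-lncRNA:CR44149: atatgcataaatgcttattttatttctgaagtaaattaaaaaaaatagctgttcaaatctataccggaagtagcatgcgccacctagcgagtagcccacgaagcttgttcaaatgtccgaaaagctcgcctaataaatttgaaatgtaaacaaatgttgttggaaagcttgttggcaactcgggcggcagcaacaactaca
Sol1-Cyp9f2: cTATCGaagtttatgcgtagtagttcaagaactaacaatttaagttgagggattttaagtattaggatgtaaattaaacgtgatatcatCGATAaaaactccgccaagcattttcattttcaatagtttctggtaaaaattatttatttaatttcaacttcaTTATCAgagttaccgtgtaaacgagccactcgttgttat
lncRNA:CR44603-lncRNA:CR45695: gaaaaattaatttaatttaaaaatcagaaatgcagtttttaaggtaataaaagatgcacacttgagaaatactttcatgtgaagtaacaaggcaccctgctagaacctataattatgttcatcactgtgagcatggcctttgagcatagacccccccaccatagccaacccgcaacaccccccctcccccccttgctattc
nrv1-nrv2: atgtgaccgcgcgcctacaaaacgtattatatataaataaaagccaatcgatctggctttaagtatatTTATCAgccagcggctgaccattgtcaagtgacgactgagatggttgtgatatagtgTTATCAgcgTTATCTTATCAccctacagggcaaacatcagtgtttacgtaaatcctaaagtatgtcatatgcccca
CG5958-CG5973: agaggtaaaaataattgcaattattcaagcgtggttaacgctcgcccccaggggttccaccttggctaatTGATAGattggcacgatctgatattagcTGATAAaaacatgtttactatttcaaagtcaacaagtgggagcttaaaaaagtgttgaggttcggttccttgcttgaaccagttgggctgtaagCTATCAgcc
lncRNA:CR44526-SrpRbeta: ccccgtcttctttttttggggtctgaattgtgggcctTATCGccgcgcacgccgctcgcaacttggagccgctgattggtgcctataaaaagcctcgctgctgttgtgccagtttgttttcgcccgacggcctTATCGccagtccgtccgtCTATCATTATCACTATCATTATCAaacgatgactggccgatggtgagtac
Icmt-Adk2: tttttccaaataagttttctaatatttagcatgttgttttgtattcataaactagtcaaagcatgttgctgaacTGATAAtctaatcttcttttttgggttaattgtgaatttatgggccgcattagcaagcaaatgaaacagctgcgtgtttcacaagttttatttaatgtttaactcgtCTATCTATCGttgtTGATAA

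These windows differ widely. The strongest window, between jp and lncRNA:CR44149, holds 0 matches of either kind, and so does that between lncRNA:CR44603 and lncRNA:CR45695. The window between Sol1 and Cyp9f2 has 1 GATA match and 2 CGATA matches. The windows between nrv1 and nrv2, paired genes for sodium pump subunits, and between lncRNA:CR44526 and SrpRbeta hold 4 GATA matches each, and in the second of these they stand side by side in 1 run of capitals. The windows between CG5958 and CG5973 and between Icmt and Adk2 hold 3 each. The gap between Icmt and Adk2 is only 27 bp long, so most of that window lies inside these genes, and its matches lie wholly or partly in them.

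By rank the intergenic peaks spanned nearly the whole list. Their signal, a value in the authors' own units by which the lists are ranked, ranged from 163 to 1864 with a median of 245 and quartiles of 197 and 357, against a median of 252 and quartiles of 197 and 355 over all thresholded peaks. Promoter peaks had a median of 254 and intronic peaks one of 251. The highest signal over all thresholded peaks was 3316, above that of any intergenic peak. The deposited −log10 q value ran from 3.51 to 3.99 and was at its highest listed value, 3.99, in 321 of the 466 peaks. It was so in 3000 of 4302 promoter peaks and 1351 of 1986 intronic peaks. Of the 466 peaks, 66 were among the 1000 strongest of the list and 63 among the weakest 1000. The signal took part in the threshold, so these values describe the peaks and test nothing. In whole embryos, binding in fewer cells and weaker binding per cell cannot be told apart. At the threshold, the 3 weakest intergenic peaks had signals of 163, 163 and 163, and the 3 strongest intergenic candidates left out had 162, 162 and 162. At the distance limit, the nearest peaks kept lay 502, 502 and 503 bp from a start, and the nearest peaks outside genes that were left out lay at 500, 497 and 483 bp. Of the 3571 intergenic candidates in the pooled list, 466 reached the thresholded list, 13% against 23.4% of all 30000 pooled candidates; the choice of peaks used this contrast.

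The intervals called around these summits were 121 to 2566 bp wide with a median of 484 bp, the same as over all thresholded peaks. The whole interval lay outside genes for 420 of the 466 peaks (90.1%), and in 67 it reached to within 500 bp of a start. No summit lay in an annotated transposable element, against 4 among all thresholded summits, and no 201 bp window had another copy in the genome (at least 150 bp at 90% identity or more). The GC content of the windows had a median of 40.8% and ranged from 21.9 to 67.2%.

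Both replicates found most of these sites. In each replicate the highest candidates were taken, as many as the thresholded list is long, and 398 of the 466 intergenic peaks were overlapped by them in both (85.4%, 95% Wilson interval 81.9 to 88.3%), against 5498 of the 6559 other thresholded peaks (83.8%) and 83.9% of all thresholded peaks. The thresholded list was made from these same libraries, so this overlap was largely set by the choice of peaks, and it is given as a description. A further 35 peaks were among the highest candidates of replicate 2 alone, 31 of replicate 3 alone and 2 of neither, while 465 had some candidate in both replicates. The candidates behind them ranked 14 to 14560 in replicate 2, with a median of 3148, and 10 to 11479 in replicate 3, with a median of 3357. Their summits lay a median of 15 bp from the pooled summit in replicate 2 and 12.5 bp in replicate 3. Across the 465 peaks the signals of the replicates had a Spearman rho of 0.798, a description only for the same reason. Neighbouring summits often shared 1 candidate of a replicate: 429 distinct candidates of replicate 2 and 427 of replicate 3 stood behind the peaks.

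**Figure D1:**
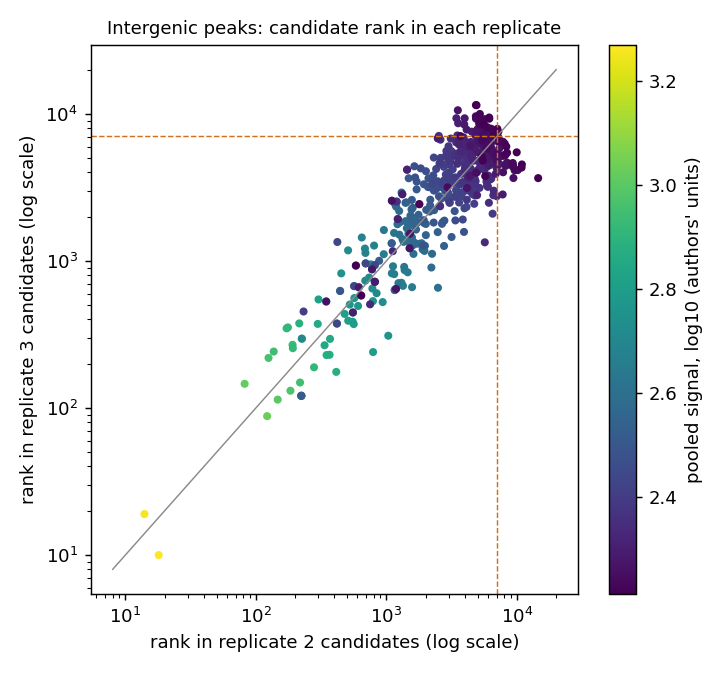
Rank of the candidate behind each intergenic peak in replicate 2 (x axis, log scale) and replicate 3 (y axis, log scale), 1 point per peak with a candidate in both (n = 465); colour gives the pooled signal as log10 of the authors' units, the grey line marks equal ranks and the dashed lines mark the rank that equals the length of the thresholded list. The strong peaks lie near the line of equal ranks, and the weak ones spread across the dashed lines on both axes.

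The lists of the single libraries held like numbers of intergenic sites. Of the highest candidates, 469 were intergenic in replicate 2 (6.68%) and 472 in replicate 3 (6.72%), against 466 in the thresholded list. Their median distance to a start was 1665 bp in replicate 2 and 1686 bp in replicate 3.

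Intergenic peaks were sparse for the sequence counted. The genome has 36.3 Mb outside genes and more than 500 bp from a start, 27.1% of the 6 chromosome arms, and it held 12.9 peaks per Mb (95% Poisson interval 11.7 to 14.1). The same candidates gave 12.9 per Mb in replicate 2 and 13.0 per Mb in replicate 3. Introns more than 500 bp from a start held 37.6 peaks per Mb (36.0 to 39.3), and the arms as a whole 52.5 per Mb. Annotated transposable elements outside genes were counted in the 36.3 Mb. How much of each kind of sequence reads can be placed on was not tested.

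Within the intergenic sequence, the peaks kept close to genes. The nearest start lay a median of 1754 bp away (quartiles 919 and 3694 bp), against 1899 bp for intronic peaks and 2741 bp for the 2929 remaining intergenic candidates, which overlap no thresholded peak. There were 47.1 peaks per Mb (39.4 to 55.8) at 500 to 1000 bp from a start, 27.6 at 1000 to 2000 bp, 15.2 at 2000 to 5000 bp, 6.84 at 5000 to 10000 bp, 3.61 at 10000 to 20000 bp and 0.517 (0.141 to 1.32) beyond 20000 bp. The remaining candidates also thinned out, with 161 per Mb at 500 to 1000 bp and 8.65 per Mb beyond 20000 bp. For 306 peaks (65.7%, 61.2 to 69.8%) the nearest start faced away, so that the peak lay upstream of it, and for 160 (34.3%) the peak lay downstream. A summit outside genes can lie downstream of its nearest start only beyond the far end of that gene. The rule thus favours the upstream side by itself, and no share of the remaining candidates stands beside these values.

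Short gaps between genes were the most densely bound. A gap is the stretch between the end of the gene body on the left of a summit and the start of that on its right. The peaks lay in gaps of 27 to 245765 bp with a median of 4947 bp, against a median of 9900 bp for the remaining candidates. Gaps under 5 kb held 235 of the peaks (50.4%) in 12.8% of the eligible sequence, 50.8 per Mb (44.5 to 57.7). Gaps of 5 to 20 kb held 12.3 per Mb, gaps of 20 to 50 kb 6.65 per Mb, and gaps over 50 kb 0.753 per Mb (0.303 to 1.55), where 7 peaks lay in 9.29 Mb. From the shortest gaps to the longest, the remaining candidates had 181, 107, 64.9 and 9.25 per Mb. Gap length and distance to a start go together, and their parts in these densities were not tested.

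**Figure D2:**
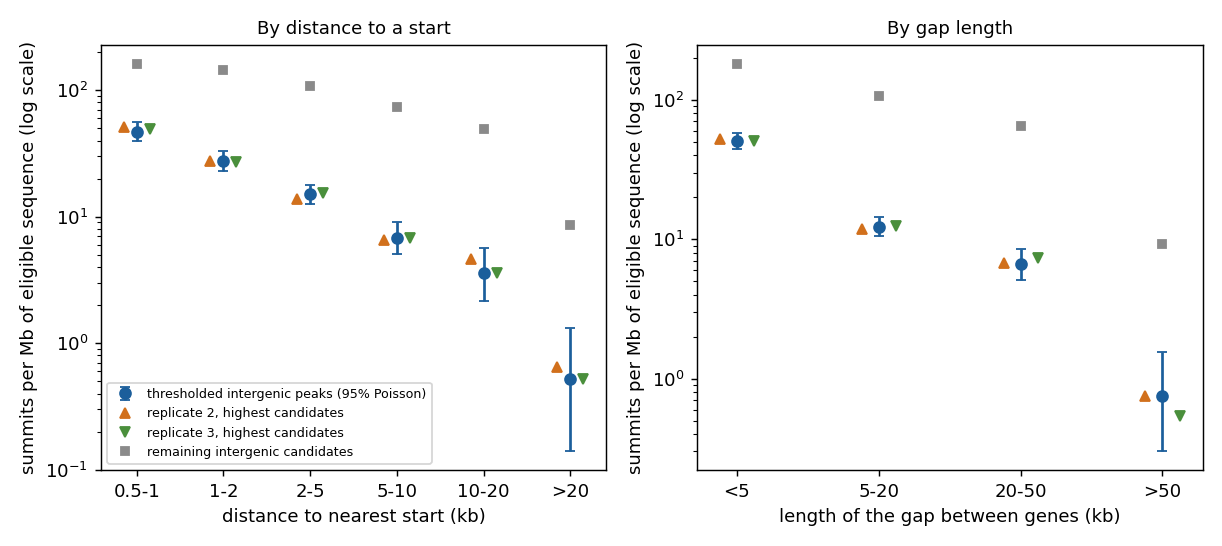
Summits per Mb of eligible sequence (y axes, log scale) by distance to the nearest start (left) and by length of the gap between genes (right), both in kb; circles are thresholded intergenic peaks with 95% Poisson intervals, triangles the highest candidates of replicates 2 and 3, and squares the remaining intergenic candidates. Density falls with each step in both panels, and both replicates follow the pooled list.

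The gene ends nearest to the peaks are of both kinds. The nearest gene edge was a 3′ end for 244 peaks (52.4%, 47.8 to 56.9%), against 52.3% of the remaining candidates, a difference of 0.0901 points (-4.79 to 4.94). A 3′ end lay within 500 bp of 120 peaks (25.8%, 22.0 to 29.9%), against 390 of the 2929 remaining candidates (13.3%), a difference of 12.4 points (8.46 to 16.8). By the rule no 5′ end can lie that close. In 14 peaks the whole gap was no longer than 500 bp, and these included the summit between Sol1 and Cyp9f2, in a gap of 437 bp, and that between Icmt and Adk2, in a gap of 27 bp.

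By the strands of the 2 flanking genes, density was highest between divergent genes, with an interval that meets that of tandem genes. Between divergent genes, which point away from each other, 124 peaks lay, 16.8 per Mb (14.0 to 20.02). Between genes in tandem there were 224 peaks at 12.3 per Mb (10.7 to 14.0), and between convergent genes 118 peaks at 12.7 per Mb (10.5 to 15.2). The remaining candidates had 106, 81.3 and 71.0 per Mb in the same order. No peak lay in the 1.35 Mb between the outermost genes and the ends of the arms, for which the upper bound of the 95% Poisson interval is 2.73 per Mb. Remaining candidates were few there too, with 2.22 per Mb. By arm the density ran from 11.4 per Mb on 2R (9.12 to 14.1) and 11.8 on 3R through 12.4 on X and 13.3 on 3L to 15.2 on 2L (12.4 to 18.4), intervals that overlap; the small chromosome 4 had 5 peaks, 20.4 per Mb (6.62 to 47.6).

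The genes on both sides were most often protein coding. Of the 932 flanking genes counted over the 466 peaks, 714 (76.6%) were protein coding, 200 (21.5%) noncoding RNA genes, 14 tRNA genes, 3 pseudogenes and 1 an snRNA gene. Coding genes stood on both sides of 285 peaks (61.2%, 56.7 to 65.5%), against 51.7% of the remaining candidates. A noncoding RNA gene stood on at least 1 side of 166 peaks (35.6%), against 45.8% of the remaining candidates, a difference of -10.2 points (-14.8 to -5.4).

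The promoters of the flanking genes were often bound as well. A promoter counted as bound if any start of the gene had a thresholded summit no more than 500 bp away. Both flanking promoters were bound for 87 peaks (18.7%, 15.4 to 22.5%), 1 of them for 202 (43.3%) and neither for 177 (38.0%). Among the remaining candidates the shares were 7.1%, 28.3% and 64.6%, differences of 11.6 points for both (8.15 to 15.5) and -26.6 points for neither (-31.2 to -21.8). In terms of genes, 651 of the 2852 genes that flank any intergenic candidate flanked a peak (22.8%). The promoter was bound in 252 of these 651 (38.7%, 35.0 to 42.5%), against 431 of the 2201 that flanked remaining candidates only (19.6%) and 25.6% of all 18164 genes. The remaining candidates lay farther from starts, and the part of that distance in this difference was not tested. Candidates that overlap a thresholded peak, promoter peaks included, were left out of them, and the part of that choice was not tested either.

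Some gaps held several peaks. The 466 peaks lay in 338 gaps, of which 265 held 1, 44 held 2 and 29 held 3 or more; these 29 gaps held 113 peaks (24.2%). The next thresholded summit of any kind lay a median of 1952 bp away, against 1764 bp over all thresholded peaks, and within 1000 bp for 146 peaks (31.3%).

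The gap between lncRNA:CR44603 and lncRNA:CR45695 (chr2L:1626022-1646931) held 8 peaks in 20910 bp. Its nearest coding genes are RFeSP on the left, which encodes the Rieske iron-sulfur subunit of the respiratory chain, and chinmo on the right, a BTB zinc-finger regulator of temporal fate in neurons. From left to right the summits had signals of 428.4, 610.4, 199.3, 393.8, 630.4, 649.4, 1083.0 and 270.5. In replicate 2 the candidates behind them ranked 1237, 554, 554, 1216, 479, 302, 122 and 4005, and in replicate 3 they ranked 706, 446, 446, 1777, 436, 547, 88 and 4278. The summits with signals of 610.4 and 199.3 share 1 candidate in each replicate, so that they are not separate sites in the single libraries. The strongest, at position 1643513, lay 7745 bp from chinmo, whose promoter was bound, while those of both flanking noncoding genes and of RFeSP were not.

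The gap between lncRNA:CR44526 and SrpRbeta (chr3L:8693192-8718948) also held 8 peaks, in 25757 bp. SrpRbeta encodes a subunit of the signal recognition particle receptor, and the nearest coding gene on the left is hry, the pair-rule repressor hairy. The 8 signals from left to right were 478.2, 186.2, 445.8, 194.0, 231.3, 505.5, 503.4 and 271.2, and the promoters of lncRNA:CR44526, hry and SrpRbeta were all bound. In the replicates only 4 candidates stood behind the 8 summits, with ranks of 1185, 1124, 816 and 694 in replicate 2 and of 645, 920, 721 and 962 in replicate 3. A further 3 peaks lay between hry and lncRNA:CR44526, with signals of 201.4, 202.6 and 171.7. The noncoding gene lncRNA:CR44526 thus flanked 11 peaks, more than any other gene.

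Both sides of Rh5, which encodes a rhodopsin of the photoreceptors, were occupied. The gap between Hacd1, an enzyme of very long fatty acid synthesis, and Rh5 held 5 peaks in 5886 bp with signals of 804.1, 508.0, 248.0, 242.3 and 920.3. The gap between Rh5 and lncRNA:CR44588 held 4 more in 3695 bp, with signals of 912.0, 330.9, 416.7 and 391.3. Those 4 share 1 interval in the pooled list and 1 candidate in each replicate, at rank 223 in replicate 2 and 121 in replicate 3. The promoter of Hacd1 was bound and that of Rh5 was not.

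In the other gaps with 5 or more peaks no signal exceeded 551. Between Srp9, a protein of the signal recognition particle, and CG43880 there were 6 with signals of 165 to 551. Between scyl, an inhibitor of TOR signalling under low oxygen, and lncRNA:CR44720 there were 5 with signals of 194 to 294. The 5 between Atf3, a bZIP transcription factor, and CG32812 ranged from 164 to 386, and 1 of them, with a signal of 164.3, ranked 14560 in replicate 2 and 3657 in replicate 3.

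**Figure D3:**
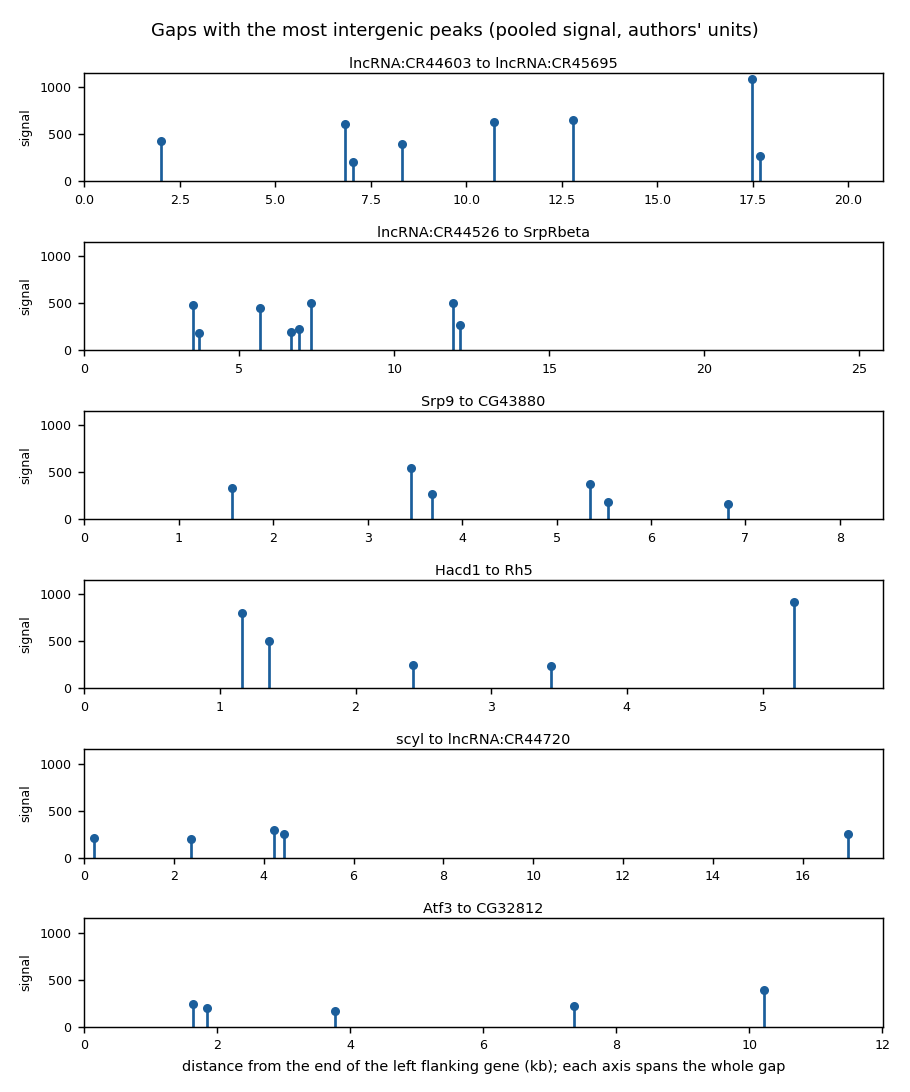
Intergenic peaks in the 6 gaps that hold 5 or more; the x axis gives distance in kb from the end of the left flanking gene and spans the whole gap, and the y axis gives the pooled signal in the authors' units, 1 stem per summit. Close pairs of stems are neighbouring summits, several of which share 1 candidate in the replicates.

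The strongest intergenic peak lay between jp, which encodes junctophilin, a bridge between plasma membrane and endoplasmic reticulum, and lncRNA:CR44149, 758 bp upstream of jp. Its signal was 1864 in the pooled list (rank 14 of 30000), 924.6 in replicate 2 (rank 18) and 943.8 in replicate 3 (rank 10). The second, between Sol1 and Cyp9f2, a cytochrome P450 gene, had a pooled signal of 1805 (rank 16), 959.5 in replicate 2 (rank 14) and 821.9 in replicate 3 (rank 19). It lay 231 bp beyond the 3′ end of Sol1 and 207 bp beyond that of Cyp9f2, and the nearest start, 1294 bp away, is that of DNAlig3, a DNA ligase gene. The next, on the side of chinmo, had a pooled signal of 1083 (rank 89), with 548.6 in replicate 2 (rank 122) and 513.8 in replicate 3 (rank 88).

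The 20 strongest intergenic peaks, with signals of 733 to 1864, ranked 14 to 413 in replicate 2 and 10 to 376 in replicate 3. They were picked by the pooled signal, which both libraries make up, so these ranks describe them and are no separate support. Arm 2R held 8 of them, 2L held 6, 3R held 3, 3L held 2 and X held 1. On 2R they included the peak between ana and CNT2, a nucleoside transporter gene (1040), that between asRNA:CR44293 and CG30010 (988.3) and that between blw and CycB, the mitotic cyclin B gene (892.5), which lay between 2 convergent genes with bound promoters. Those between lncRNA:CR44761 and Ppa, an F-box gene (886.0), between Vang, a gene of planar cell polarity, and Pgm2a, a phosphoglucomutase gene (819.4), between Aldh-III and wech (808.6) and between RpS23, a ribosomal protein gene, and CG8468 (764.7) were also on 2R. On the other arms were the peaks between CG7992 and Hs3st-B, a heparan sulfate sulfotransferase gene (845.1), between lncRNA:CR45641 and lncRNA:CR45643 (824.1), between CG9498 and ppk7, a pickpocket sodium channel gene (807.6), between C15, a homeobox gene of the leg tip, and sp3 (758.7), between CG11349 and CG7465 (751.7) and between CG8519 and ple, the tyrosine hydroxylase gene (732.7). The flanking genes include genes of metabolism, cell division, channels and transcription factors.

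From the nearest start, 333 peaks (71.5%) lay beyond 1000 bp, 207 (44.4%) beyond 2000 bp and 22 (4.72%) beyond 10000 bp. The 3 farthest and the fifth lay in the gap of 75047 bp between NijA, a ninjurin gene of tissue damage, and CG43245, at 37229, 34531, 31856 and 19099 bp from the nearest start. Their pooled signals were 177.1, 516.4, 358.5 and 533.0, with ranks of 5460, 509, 1419 and 781 in replicate 2 and of 7139, 1180, 2501 and 649 in replicate 3. All but the first were thus among the highest candidates of both libraries, and neither flanking promoter was bound. The fourth, between vvl, a POU-homeobox gene, and lncRNA:CR45115, lay 26234 bp from vvl with a signal of 219.5.

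Genes of patterning and chromatin also stood beside some of the next. Between Su(z)2, a Polycomb group gene, and CG13323, 1 peak lay 18708 bp from a start with a signal of 307.8, and another of that gap, 27465 bp from the 3′ side of Su(z)2 and 11880 bp from the start of CG13323, had 941.6 and was the sixth strongest of the 466. Between bab1 and bab2, paired BTB genes of leg and abdomen patterning, 1 peak lay 18431 bp from bab1 with a signal of 325.9 in the pool, 168.7 in replicate 2 and 150.6 in replicate 3. The peaks between lncRNA:CR46474 and lobo (15978 bp, 228.2), between B-H2, a BarH homeobox gene, and lncRNA:CR43491 (15887 bp, 179.9) and between CG13970 and CG10651 (14143 bp, 175.5) complete the 10 farthest. The signals of these last 3 lay below the median of 245.

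Near the summits, sequences of the GATA kind were frequent. The motif AGATAA or AGATAG or TGATAA or TGATAG was searched on both strands within 100 bp of each summit, and it was found in 241 of the 466 windows (51.7%, 95% Wilson interval 47.2 to 56.2%), against 322 of 932 windows of equal length centred 600 bp to either side (34.5%, 31.6 to 37.7%). The difference was 17.2 points (95% Newcombe interval 11.7 to 22.6). In the intergenic candidates of the single libraries the shares were 53.1% at summits and 35.7% in flanking windows for replicate 2, and 48.7% and 34.9% for replicate 3. The remaining candidates held it in 31.1% at the summit, 20.6 points less than the peaks (15.8 to 25.4). Mean GC content was 41.3% at the peaks, against 39.7% in their flanking windows and 42.2% at the remaining candidates. A match is a string of letters and not a bound site, and neighbouring windows can overlap.

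The share stood between those of the other classes of peak. Intronic peaks held the motif in 60.6%, so that the intergenic share was lower by 8.86 points (difference -8.86, -13.9 to -3.86), and promoter peaks in 40.6%, so that it was higher by 11.1 points (6.34 to 15.8). The string GATAAG overlaps the GATA motif but leaves the letter before it free, so that some windows hold GATAAG without a GATA match. It was present in 27.7% of intergenic peaks, against 36.1% of intronic and 19.9% of promoter peaks and 12.3% of the flanking windows.

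**Figure D4:**
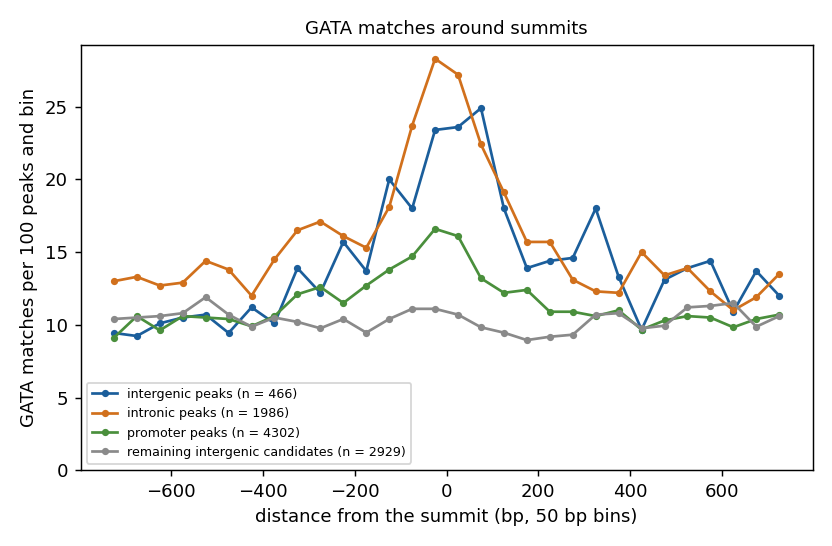
GATA matches per 100 peaks in bins of 50 bp (y axis) by distance from the summit in bp (x axis) for intergenic, intronic and promoter peaks and for remaining intergenic candidates. The 3 classes of thresholded peak rise towards the summit, and the remaining candidates stay between 8.95 and 11.9 per 100. The highest intergenic bin lies between the highest intronic and the highest promoter bin, but in some bins near the summit intergenic peaks lie above intronic peaks.

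The matches gathered at the summit. Intergenic peaks had 23.4, 23.6 and 24.9 matches per 100 peaks in the 3 bins of 50 bp that start at -50, 0 and 50 bp, against 9.44 per 100 in the bin that starts at -750 bp. On the right side single bins stayed higher, with 18.0 at 300 bp and 14.4 at 550 bp. Intronic peaks had 28.3 per 100 in the bin at -50 bp, promoter peaks 16.6 and remaining candidates 11.1. In the bin at 0 bp intronic peaks were also higher than intergenic peaks, with 27.2, but in the bin at 50 bp they were lower, with 22.4. Of the 4 letter forms, TGATAA was the most frequent, in 31.5% of intergenic peaks against 16.7% of flanking windows, followed by AGATAA (18.7% against 12.2%), TGATAG (12.7% against 5.47%) and AGATAG (8.37% against 6.87%). The interval of the difference included 0 for AGATAG alone (1.5 points, -1.33 to 4.72), and in replicate 3 alone its share of 7.2% lay below that of the flanking windows, 7.31%. Among peaks, 225 had 0 matches, 123 had 1, 77 had 2 and 41 had 3 or more, up to 5. With 2 or more there were 118 peaks (25.3%), against 79 of the 932 flanking windows (8.48%).

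The GATA share showed no order by the strength of the peak. In 4 equal groups from the strongest to the weakest peaks it was 52.1%, 52.6%, 47.4% and 54.7%, and the intervals of all 4 overlap. By distance to a start it was 52.6% at 500 to 1000 bp, 55.6% at 1000 to 2000 bp, 50.7% at 2000 to 5000 bp and 45.1% (34.0 to 56.6%) beyond 5000 bp, again with intervals that overlap. It was in 62 of 124 peaks between divergent genes, 51.3% of those between tandem and 54.2% of those between convergent genes. Where both flanking promoters were bound it was 59.8% (49.3 to 69.4%), with 1 bound 52.0% and with neither 47.5% (40.2 to 54.8%). None of the 10 peaks farthest from a start was among the windows printed above, and 7 of the 10 had 0 matches, against 225 of all 466 peaks (48.3%). The 10 are too few to tell from that share, and several of them lie in 1 gap.

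The 5-letter string CGATA, which is part of the DNA replication-related element (DRE) of housekeeping promoters, was in 178 windows (38.2%, 33.9 to 42.7%), against 22.7% of the flanking windows, a difference of 15.5 points (10.3 to 20.6). No difference was resolved from intronic peaks (35.8%, difference 2.4, -2.4 to 7.35) and promoter peaks (39.0%, difference -0.784, -5.33 to 3.93). The whole DRE, TATCGATA, was rare, in 3 of 466 windows (0.644%), against 5.18% of promoter peaks, a difference of -4.54 points (-5.36 to -3.16). CGATA was in 42.3% (36.5 to 48.3%) of peaks alone in their gap and in 29.2% (21.6 to 38.2%) of peaks in gaps with 3 or more, with intervals that overlap.

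Of the 22 motifs searched, 7 were more frequent at the intergenic peaks than in their flanking windows by an interval above 0 (31.8%), and 1 less frequent (4.55%). Several motifs share letters, and the DRE holds CGATA. Besides the GATA motif and GATAAG and CGATA, these were ACACTG (10.3% against 5.47%), the forkhead motif TGTTTAC (7.94% against 4.51%), the repeat CACACACA (7.51% against 4.61%) and GAGAGAG, bound by GAGA factor and CLAMP (4.94% against 2.47%). In replicate 3 alone the GAGAGAG shares were closer, 3.6% against 2.65%, and in replicate 2 they were 4.9% against 3.09%. The STAT motif TTCNNNGAA was less frequent (3.43% against 7.40%, difference -3.97, -6.25 to -1.41). Against the remaining candidates only 4 motifs were more frequent by an interval above 0. They were the GATA motif and GATAAG and CGATA and the forkhead motif, the last with 5.43% at the remaining candidates. There ACACTG stood at 10.6% and the repeat at 8.98%, with differences of -0.318 (-3.03 to 2.95) and -1.47 (-3.8 to 1.46). The motif of GAGA factor stood at 3.55%, a difference of 1.38 (-0.397 to 3.82). Against intronic peaks only the ETS motif CCGGAA was more frequent (7.08% against 3.73%, difference 3.36, 1.16 to 6.15), and 5 were less frequent, AP-1 (TGANTCA) among them (4.08% against 7.50%). The ETS motif was not resolved from the flanking windows (5.04%, difference 2.04, -0.518 to 5.0) or from the remaining candidates (6.32%, difference 0.765, -1.44 to 3.59). Motif 1, the site of M1BP at housekeeping promoters, was in 1 intergenic window (0.215%), against 2.09% of promoter peaks. The E-box CANNTG (63.3% against 63.8% of flanking windows) and the Zelda motif CAGGTAG (1.07% against 1.07%) had differences from the flanks with intervals of -5.93 to 4.75 and -1.08 to 1.5 points.

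**Figure D5:**
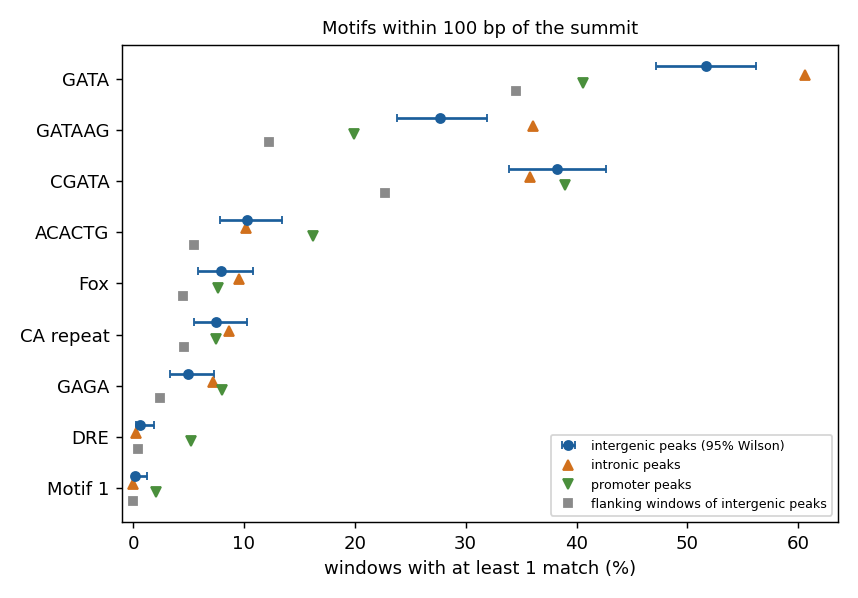
Percent of windows within 100 bp of the summit with at least 1 match (x axis) for 9 of the 22 motifs (y axis); circles are intergenic peaks with 95% Wilson intervals, triangles intronic and promoter peaks, and squares the flanking windows of the intergenic peaks. GATA and GATAAG at intergenic peaks lie between the intronic and the promoter shares, and DRE and Motif 1 lie near 0, below the promoter shares of 5.18% and 2.09%.

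A count of all 2080 6-letter strings was led by GATA strings too. Of the 15 whose share at the summits most exceeded that in the flanking windows, 10 hold GATA on 1 of the strands. CTTATC came first (27.7% against 12.3%), then TGATAA (31.5% against 16.7%), CTGATA (20.4% against 8.69%), GCGATA (17.6% against 6.55%) and CGATAA (20.2% against 9.55%). Of the strings that hold no GATA, the first was ATCAGC, at 17.8% against 9.87%, followed by the string CTAATC, at 14.4% against 6.55%. ATCAGC can share letters with a GATA match, as it does with TTATCA in the printed window between nrv1 and nrv2. How often it stands apart from such a match was not counted.

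Flanking genes were also counted by list. Each list was set against the 22.8% of genes that flank a peak among all genes that flank an intergenic candidate, and most lists have few genes there, so that their intervals are wide. Of the Sox, forkhead and GATA factor genes, 8 of 16 flanked a peak (28.0 to 72.0%). The highest peaks were those beside foxo, the insulin-regulated forkhead factor, srp, the serpent GATA factor of blood and fat body, and bin, the biniou forkhead factor of visceral mesoderm. Between tRNA:Ser-GCT-2-2 and foxo 4 peaks had signals of 561.5, 247.0, 209.7 and 198.4. Between Hel89B and srp there were 2, with 524.3 in the pool, 280.3 in replicate 2 and 235.2 in replicate 3 for the stronger and 234.7, 119.1 and 124.6 for the weaker, which holds 3 GATA matches. The 2 peaks beside bin had 480.8 and 347.9.

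Most patterning genes that flanked a peak flanked 1. Of the maternal and gap genes 3 of 11 flanked a peak (27.3%, 9.75 to 56.6%): slp1 and slp2, the paired sloppy-paired forkhead genes, which stand on either side of 1 peak with a signal of 243.3, and hb, hunchback, with 224.6. Of the pair-rule genes it was 3 of 7, slp1, slp2 and hry. Of the segment polarity and Wnt and Hedgehog genes 4 of 13 did, Wnt4 (237.4), fz, a Wnt receptor (196.8), and ptc, the Hedgehog receptor (192.4), being the highest. The peak between slp1 and slp2 was the only one with genes of 1 list on both sides. None of 3 Hox genes, 2 Dpp pathway genes, 5 Notch and Enhancer of split genes and 2 heat shock genes flanked a peak, counts too small to tell from 22.8%. Only the next gene of any biotype was counted. Beyond lncRNA:CR45750, the Hox gene abd-A was the nearest coding gene, 8361 bp to the right of a peak with a signal of 443.8.

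Of the NK, LIM and other homeobox genes 9 of 31 flanked a peak (29.0%, 16.1 to 46.6%), with C15 (758.7), exex, the HB9 factor of motor neurons (528.1), and bsh, brain-specific homeobox (424.3), the highest. The peak beside C15 lay 7536 bp beyond its 3′ end and 578 bp upstream of sp3, and that beside exex 513 bp beyond its 3′ end. Of the T-box, nuclear receptor and ecdysone response genes 4 of 10 did, led by Eip75B, an ecdysone-induced nuclear receptor (670.0), Hr38 (256.7) and Hr51 (223.4). Of the EGFR, FGF and JAK-STAT genes 4 of 9 did, of which bnl, the branchless FGF of the tracheae (342.2), aop, the ETS repressor yan (208.3), and upd1, a JAK-STAT ligand (193.6), were the highest. The proneural and neural regulator list had 1 of 4, dimm (166.6), the dorsoventral and mesoderm list 1 of 3, bin, and the hemocyte and immune list 1 of 8, srp. In the list of either single library the proneural count was 0, and the hemocyte and immune count was 3 in replicate 2 and 2 in replicate 3.

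Of the ion channel and neurotransmitter receptor genes 7 of 19 flanked a peak (36.8%, 19.1 to 59.0%), with Dop1R2, a dopamine receptor (479.4), nAChRalpha7 (326.8) and nAChRalpha2 (231.9), acetylcholine receptor subunits, the highest. The peak beside Dop1R2 lay 9212 bp beyond its 3′ end and 334 bp beyond that of CG1907, whose promoter was bound. Of the synaptic and axon guidance receptor genes 0 of 22 did (0 to 14.9%), and 1 did with replicate 3 alone. Among glycolytic enzyme genes 2 of 4 did, Gapdh1 (210.2) and Ald2 (192.2). Several genes stand in more than 1 list, and genes that share a gap share its peaks.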

How the data were processed

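The authors deposited peak lists, which the labels place on build dm6: 30000 candidates for each replicate and for the pool, and a thresholded list. Each line holds the interval, the signal (in the authors' own units; no source used here gives its scale), the −log10 q value deposited by the authors and the deposited summit offset, an unscored position. No source used here names the aligner or peak caller. The thresholded lines are exactly the highest lines of the pool, and as many of the highest candidates of each replicate were compared with them.

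Summits were annotated with Ensembl release 115, leaving out its transposable element entries; 18164 genes and 23581 starts were used. A pair of flanking genes was read for each summit. Motifs (22) and 6-letter strings were counted within 100 bp of summits and in windows centred 600 bp away. Copies were searched with BLAST+ 2.17.0; other steps used Python 3.11.15, pandas 2.3.3 and scipy 1.17.1, and counts were tested on simulated data. Shares carry 95% Wilson intervals, differences Newcombe intervals and densities exact Poisson intervals. No p-value is given, since peaks are not replicates. Depth is unknown, and intervals cover counting only. Of 378 listed symbols in 17 lists, 374 matched.

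Genes named flank the 20 strongest peaks, the 10 farthest from a start, the 5 fullest gaps, or belong to a list, at most 3 per list; others named beside them were chosen after their values were seen. The peaks, lists and motifs were chosen with earlier results of these data known. Alternatives were other distance limits, whole intervals, coding genes only, RefSeq genes, merged peaks, shorter lists and each replicate alone; counting transposable elements as genes and flanks outside genes were added after seeing the data.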

Additional observations from a re-analysis of the deposited data

How the results depend on the processing

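The count of 466 intergenic peaks was 222 in the stronger 50% of the list and 66 among the 1000 strongest peaks, as shorter lists must give. Their share moved to 9.52% with a limit of 250 bp from a start, 4.74% with 1000 bp, 5.98% for intervals wholly outside genes and 9.3% with protein-coding genes only. Density moved to 17.6 per Mb with 250 bp and 9.96 per Mb with 1000 bp. Support in both replicates moved to 76.4% when summits had to lie within 100 bp, and to 100% in the stronger 50% and in the 1000 strongest peaks. The GATA difference from the flanking windows was 11.4 points (-3.36 to 25.2) and that from intronic peaks -3.03 points (-16.3 to 9.53) in the 1000 strongest, where only 66 peaks remain. The divergent share moved to 31.1% with protein-coding genes only, and the share of candidate-flanking genes that flank a peak to 12.2% in the stronger 50% of the list. With each replicate alone, the count was 469 to 472, the share 6.68 to 6.72%, the density 12.9 to 13.0 per Mb, the GATA difference 13.9 to 17.4 points from flanking windows, -11.5 to -6.16 from intronic and 8.89 to 11.4 from promoter peaks, the divergent share 26.7 to 27.5% and the share of flanking genes 22.1 to 23.3%. Of the counts by list, those of the maternal and gap, pair-rule, segment polarity, proneural and glycolytic lists were 0 in the stronger 50% of the list, and the others there ran from 0 to 5. None of the GATA differences in this paragraph reversed, while that of AGATAG from its flanking windows did in replicate 3. Some other motifs whose interval included 0 also changed sign against the flanking windows in 1 library. Among them were the E-box (63.6% against 63.0% in replicate 3) and the A tract AAAAAAAA (11.1% against 10.7% in replicate 2). No paired analysis was possible because there is only 1 group. Depth is unknown, so no limit on weak sites can be given.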

Other observations

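Some intergenic sites were high in 1 library and missed by the thresholded list. Of the 469 intergenic sites among the highest candidates of replicate 2, 41 overlap no thresholded peak, and of the 472 of replicate 3, 42 do not. In replicate 2 the highest lay between CheA84a and CG7800, with a signal of 125.6 at rank 4083, against rank 8774 in replicate 3 and rank 7823 in the pool. A site between tRNA:Ile-TAT-1-2 and CG13898, 14403 bp from a start, ranked 4698 in replicate 2 and 27548 in replicate 3. In replicate 3 the highest lay between CG10321 and Ip6k, an inositol phosphate kinase gene, with a signal of 120.9 at rank 3465, against rank 14102 in replicate 2.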
